A study of Drosophila melanogaster with 3 samples.

Results

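The genes described here are 9 genes of insulin and TOR growth control in Drosophila melanogaster: InR, chico, Akt, foxo, Tor, S6k, Thor, Lk6 and larp. They are 9 of 13968 protein-coding genes on the main chromosomes, and they hold 32 of the 8424 summits in the thresholded peak set of the irreproducible discovery rate (IDR) step, which keeps peaks that rank alike in replicates. A summit was assigned to a gene when it lay inside the gene or within 5000 bp of one of its transcription start sites (TSSs). The genes were chosen from the pathway with the peak values of these same lists known, so their signals, ranks and counts are a description and no test was made of them.

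In Drosophila, insulin-like peptides bind the receptor InR, and the substrate adaptor chico passes the signal to phosphoinositide 3-kinase and on to the kinase Akt. Active Akt keeps the transcription factor foxo out of the nucleus and relieves the brake on the kinase Tor, which promotes translation through S6k and by restraining Thor, the fly 4E-BP that blocks the cap-binding protein eIF4E. Lk6 is an eIF4E kinase related to mammalian Mnk, and larp is a La-related RNA-binding protein whose mammalian counterpart binds mRNAs under TOR control. In prepupae feeding has stopped, and this pathway is known to couple nutrition to growth before that stage.

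The study profiled topi, a zinc-finger protein of a testis-specific transcription complex, by chromatin immunoprecipitation and sequencing (ChIP-seq). All samples form 1 group of 3 biological replicates: whole animals at the white prepupa stage from the strain topi-GFP, with males and females pooled, age given as unknown, a stably expressed transgene that fuses GFP to the C terminus of topi, and immunoprecipitation with an antibody against GFP. The labels name no other treatment, do not say what drives the transgene, and do not say whether replicates came from separate cultures. The 3 libraries share 1 control alignment, and no untagged line was analysed here, so peaks that need topi and peaks that arise without it cannot be told apart.

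Peak signal is the authors' enrichment value over the control and is not scaled between lists, so ranks within a list (1 is the strongest) are given beside it. The pooled list and each replicate list hold 30000 relaxed peaks, background regions included, and a gene without a peak is one where none reached that rank. The lists give no read counts, and sequencing depth is therefore unknown. The animals were whole, so a site bound strongly in few cells and one bound weakly in many cannot be told apart.

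The strongest sites of the genes are shown first, since the results below turn on them. Each sequence is the reference genome (dm6) from 100 bp before to 100 bp after the summit, written 5′ to 3′ on the strand of the gene. Capitals mark matches to the motifs described at the end; the larp, Akt and InR windows hold none.
Lk6 chr3R:11760944-11761144, minus strand: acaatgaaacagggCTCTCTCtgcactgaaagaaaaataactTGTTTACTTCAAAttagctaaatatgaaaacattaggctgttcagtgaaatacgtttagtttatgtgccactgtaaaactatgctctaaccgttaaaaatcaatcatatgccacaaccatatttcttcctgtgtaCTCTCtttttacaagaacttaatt
larp chr3R:28326498-28326698, minus strand: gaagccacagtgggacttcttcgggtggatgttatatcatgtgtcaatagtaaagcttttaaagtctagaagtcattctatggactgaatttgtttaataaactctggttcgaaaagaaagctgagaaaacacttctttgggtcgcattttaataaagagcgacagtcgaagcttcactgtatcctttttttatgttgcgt
Akt chr3R:16097718-16097918, plus strand: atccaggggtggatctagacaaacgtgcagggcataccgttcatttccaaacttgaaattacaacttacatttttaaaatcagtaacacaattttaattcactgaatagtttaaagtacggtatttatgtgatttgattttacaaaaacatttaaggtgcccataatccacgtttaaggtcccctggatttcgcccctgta
foxo chr3R:14053516-14053716, plus strand: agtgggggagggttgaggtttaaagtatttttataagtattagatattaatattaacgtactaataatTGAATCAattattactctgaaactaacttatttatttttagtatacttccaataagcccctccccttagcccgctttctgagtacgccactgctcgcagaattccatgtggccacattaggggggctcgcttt
InR chr3R:21608747-21608947, minus strand: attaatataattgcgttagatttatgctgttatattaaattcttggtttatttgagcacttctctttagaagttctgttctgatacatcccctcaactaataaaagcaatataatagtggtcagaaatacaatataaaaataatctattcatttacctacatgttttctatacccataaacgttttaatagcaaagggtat
Tor chr2L:13004132-13004332, plus strand: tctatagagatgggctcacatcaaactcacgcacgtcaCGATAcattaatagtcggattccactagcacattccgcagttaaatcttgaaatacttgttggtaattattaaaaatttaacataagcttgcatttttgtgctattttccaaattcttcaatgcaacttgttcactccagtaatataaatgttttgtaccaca
The Lk6 and InR windows lie in a first intron of their gene, the larp window in introns of its longer transcripts, and the Akt, foxo and Tor windows upstream of the gene. GC content was 32.3% in the Lk6 window, 37.3% in the larp window, 35.8% in the Akt window, 37.8% in the foxo window, 26.9% in the InR window and 33.8% in the Tor window. Over all 32 summits the median GC content was 35.8%, against 34.3% over all IDR summits.

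An IDR summit lay within 500 bp of an own TSS in 7 of the 9 genes: InR, foxo, Tor, S6k, Thor, Lk6 and larp. Among all protein-coding genes the share was 24.3%, and among those with at least 2 TSSs it was 41.8%. The 9 genes had a median of 2 TSSs each, against 1 for protein-coding genes, and a median region of 18383 bp, against 10001 bp. Counted by TSS, 13 of their 21 TSSs had an IDR summit within 500 bp, against 23.0% of the TSSs of protein-coding genes. The 13 TSSs are not separate hits: they have 10 summits between them, since close TSSs of InR, Thor and larp share a summit. Every gene but chico had an IDR summit somewhere in its region, which held for 50.9% of protein-coding genes. The 32 summits amount to 1.64 per 10 kb of these regions, against 0.688 per 10 kb over the regions of all protein-coding genes. In the pooled relaxed list 8 genes had a summit within 500 bp of an own TSS, Akt being the one added, against 42.5% of protein-coding genes.

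Apart from 3 of them the 32 summits were of middling strength. Their median pooled signal was 172, against 180 for all IDR summits, and 16 of them were among the 4212 strongest IDR summits. The 3 that ranked among the 100 strongest belonged to Lk6, larp and Akt. Near the IDR threshold, at a signal of 93.7, the weakest included summit was one downstream of Thor with a signal of 94.2 (rank 8388). Just outside it were relaxed summits of S6k at 88.5, InR at 87.6, foxo at 86.2 and larp at 84.7 in the pooled list.

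**Figure D1:**
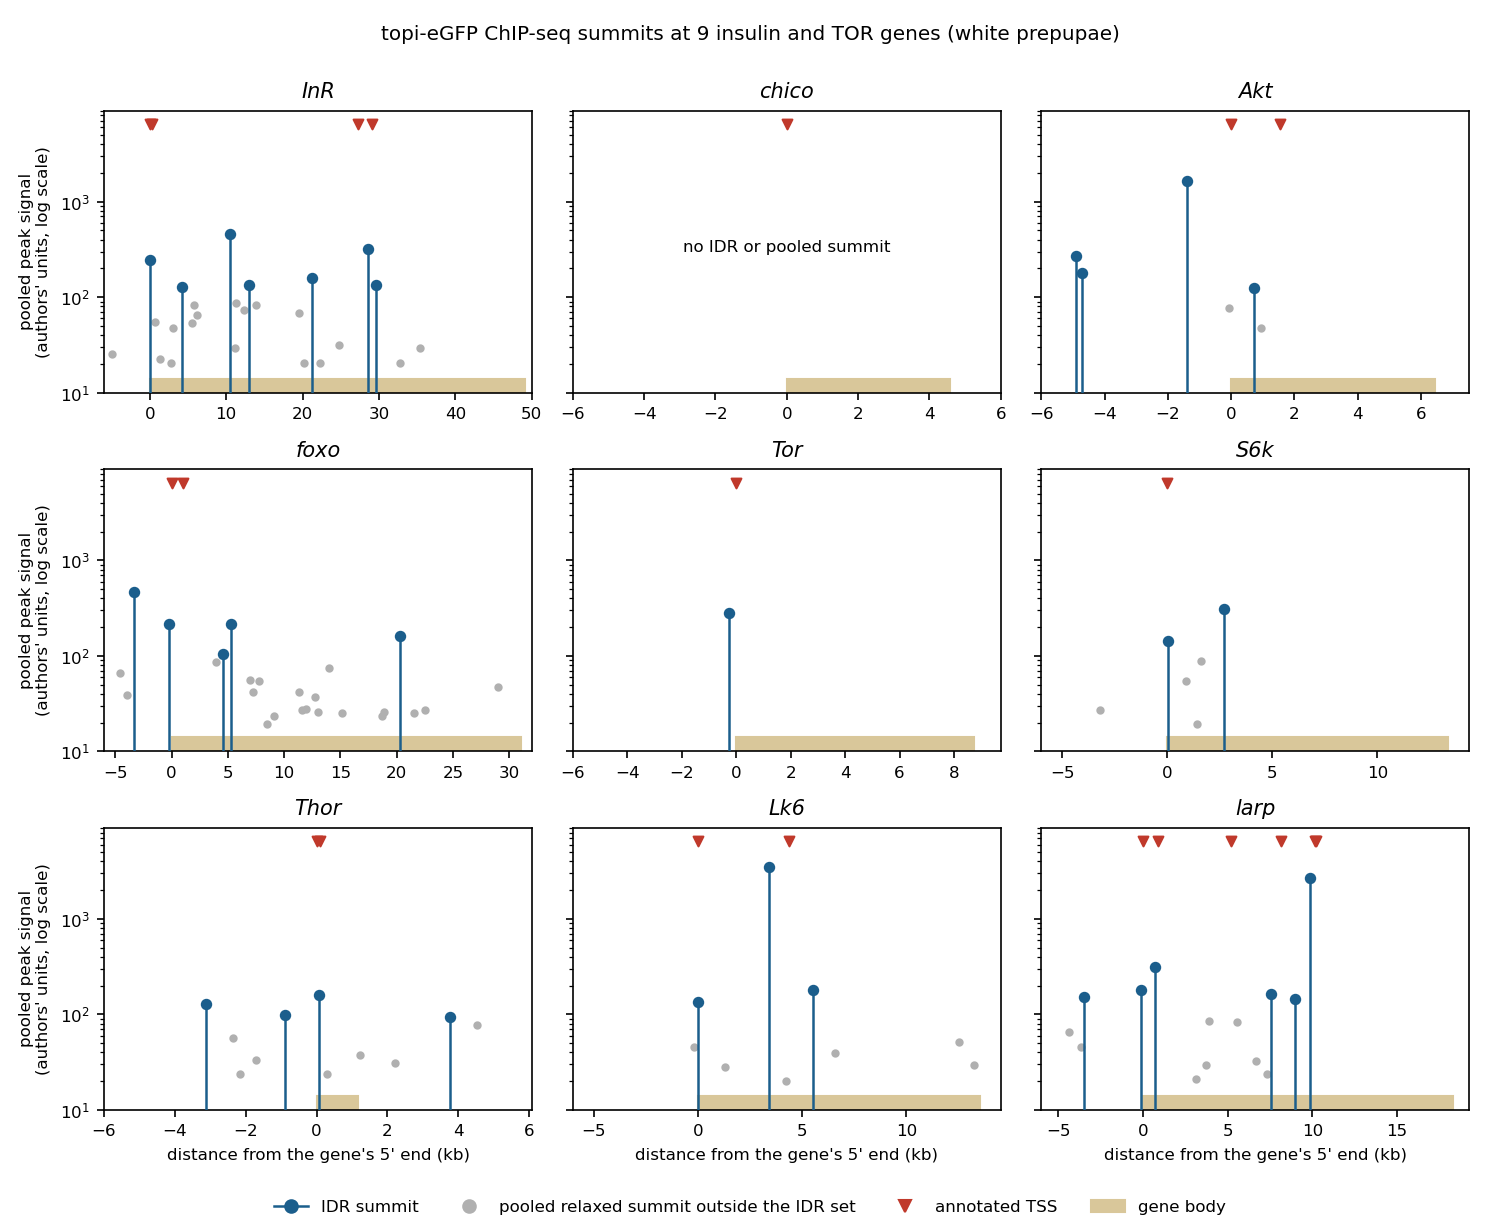
Pooled peak signal (log axis, authors' units) of each summit against its distance in kb from the gene's 5′ end, positive in the direction of transcription, with 1 panel per gene. Blue stems are IDR summits, grey points pooled relaxed summits outside the IDR set, red triangles annotated TSSs and the tan bar the gene. The Lk6, larp and Akt panels each hold 1 tall summit, at signals of 3535, 2662 and 1641, while the strongest summit of the other genes is at most 467.

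InR, the receptor, had 7 IDR summits in a gene of 49074 bp (FBgn0283499, 3R, 21570248 to 21619321, minus strand). The strongest (summit 21608847) lay deep in intron 1, with a pooled signal of 454 and rank 1203. This summit was 10189 bp downstream of the InR-RA TSS, and the TSS of the non-coding RNA gene lncRNA:CR44034 was closer, at 6893 bp. Replicates 1, 2 and 3 gave it signals of 128, 139 and 187, at ranks 938, 1493 and 1249. All replicates thus placed this intronic site well inside their stronger peaks. The promoter at the gene's 5′ end, shared by InR-RB and InR-RA, had a summit 46 bp upstream of the InR-RB TSS with a pooled signal of 245 and rank 2907; replicate ranks were 4670, 1743 and 2959. Summits were also found on both sides of an internal TSS, that of InR-RD. The first, at a pooled signal of 320, lay 597 bp upstream, outside the 500 bp window. The second, at 133, lay 461 bp downstream, inside the window. The InR-RC TSS, 1333 bp from the first of these, was the only one of the 4 InR TSSs with no IDR summit within 500 bp. The other 3 summits were intronic, with signals from 129 to 159, and 1 of them also lay in an exon of lncRNA:CR44034. All 3 had the TSS of a non-coding RNA gene closer than an InR TSS. It was that of lncRNA:Irar for the summit at 159 and that of lncRNA:CR44034 for the others.

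The adaptor chico (FBgn0024248, 2L, 10242512 to 10247078, minus strand) had no summit in the IDR set, in the pooled relaxed list or in replicate 1. Replicate 2 listed 3 weak peaks, at ranks 19966, 21074 and 26968, with summits 3273 to 3898 bp upstream of the chico TSS. Replicate 3 listed 1, at rank 18984 and 4949 bp upstream. The upstream peaks of the replicates did not coincide, and the nearest of them lay 150 bp from the TSS of the neighbouring gene bsk in replicate 2 and 184 bp from that of Ror in replicate 3. The nearest IDR summit was 11148 bp beyond the gene, 328 bp from a TSS of ova. With 1 TSS and a region of 10001 bp, chico was among the smaller genes of the set, like Thor, whose region of 10089 bp held 4 IDR summits.

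Akt, the kinase under phosphoinositide 3-kinase, had 4 IDR summits around a gene of 6443 bp (FBgn0010379, 3R, 16099228 to 16105670, plus strand) and none within 500 bp of either of its TSSs. The strongest (summit 16097818) lay 1410 bp upstream of the TSS shared by Akt-RA, Akt-RB, Akt-RC and Akt-RE, with a pooled signal of 1641 and rank 77. Its signal was 417, 529 and 693 in replicates 1, 2 and 3, at ranks 71, 81 and 74. The replicates placed it almost identically, but the site is closer to another gene: it lies in intron 1 of Mhcl, which encodes a myosin heavy chain-like protein, 943 bp downstream of a Mhcl TSS. A pair of weaker summits, with signals of 270 and 181, lay in intron 4 of Mhcl, 163 and 364 bp from another Mhcl TSS. Which gene, if either, these sites serve cannot be told from peak positions.

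The own summit of Akt was weak by comparison: it lay in intron 1, 705 bp downstream of the TSS, at a pooled signal of 126 (rank 6208). The rank was 7634 in replicate 2 and 4452 in replicate 3, and replicate 1 listed no matching peak. At the Akt TSS itself the pooled relaxed list had a peak 66 bp upstream, at a signal of 76.6 and rank 10175, outside the IDR set. In replicate 1 a peak 135 bp upstream of this TSS ranked 5196, which put Akt among the genes with a promoter summit by the 8424 strongest peaks of that replicate alone.

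foxo, the transcription factor that Akt restrains, had 5 IDR summits (FBgn0038197, 3R, 14056945 to 14087978, plus strand). The strongest (summit 14053616) lay outside the gene, 3329 bp upstream of the TSS shared by foxo-RB, foxo-RC, foxo-RF and foxo-RH, with a pooled signal of 467 and rank 1161. The signals in replicates 1, 2 and 3 were 89.4, 227 and 149, at ranks 1652, 630 and 1768. Replicate 2 stood above the other replicates at this site. The promoter summit, 230 bp upstream of the same TSS, had a pooled signal of 214 and rank 3413, with replicate ranks of 3518, 4236 and 3348 that lay close together. The second TSS, that of foxo-RG, had no summit of any pooled peak within 500 bp. The remaining 3 summits were in introns, with signals of 217, 161 and 105, and the weakest of them had no peak in replicate 1. The summit at 161 was closer to the TSS of Npc2b, 12265 bp away, than to a foxo TSS, at 19333 bp.

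Tor, the kinase of the TOR complexes (annotated as mTor, FBgn0021796, 2L, 13004480 to 13013197, plus strand), had a single summit, which was also its only peak in the pooled list. It lay 248 bp upstream of the Tor TSS (summit 13004232) with a pooled signal of 279 and rank 2427. Its signal was 95.8, 60.8 and 120 in replicates 1, 2 and 3, at ranks 1504, 4925 and 2406. Replicate 2 was the low one here, in contrast to the foxo upstream site. The summit was closer to Vha68-1, a gene for a subunit of the vacuolar proton pump, whose TSS was 125 bp away, so the site lies at the promoters of both genes.

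S6k, a kinase that TOR activates, had 2 IDR summits (FBgn0283472, 3L, 5797549 to 5810931, minus strand). The stronger lay in intron 1, 2691 bp downstream of its only TSS (summit 5808240), with a pooled signal of 308 and rank 2137. Its signal was 88.7, 109 and 113 in replicates 1, 2 and 3, at ranks 1673, 2150 and 2630. The promoter summit, 26 bp downstream of the TSS in the first exon, was lower in every replicate, at ranks 6379, 4915 and 6439, with a pooled signal of 144. It lay 68 bp from the TSS of the neighbour kri.

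Thor, the 4E-BP and a known target of foxo, is the shortest of the genes at 1179 bp (FBgn0261560, 2L, 3478434 to 3479612, plus strand) and had 4 IDR summits, of which 1 lay at its own promoter. That summit (3478491) lay between its TSSs, 57 bp downstream of that of Thor-RA and 31 bp upstream of that of Thor-RB, with a pooled signal of 159 and rank 4839. Replicate 2 ranked it 2584 and replicate 3 ranked it 6727, while replicate 1 listed no peak there. The other summits were weak, with pooled signals of 128, 98.4 and 94.2, and fell in other genes. They lay in the 3′ untranslated exon of Pgant4 (51 bp from a TSS of lncRNA:CR45372), in an exon of lncRNA:CR43928 and in an intron of CG15414. None of the 4 was among the 4212 strongest IDR summits, and Thor was the only one of the 8 genes with IDR summits of which this held.

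Lk6, the eIF4E kinase, held the strongest summit of all 9 genes (FBgn0017581, 3R, 11750931 to 11764457, minus strand). It lay in intron 1 (summit 11761044), 965 bp upstream of the internal TSS of Lk6-RB, and ranked 6 in the IDR set. Signals of 890, 1216 and 1440 in replicates 1, 2 and 3 put it at ranks 6, 4 and 6. All replicates agree within 2 ranks, and no other gene's TSS was closer than 10506 bp. The promoters of Lk6 were weak beside it. The summit 4 bp downstream of the Lk6-RA TSS, at the 5′ end of the gene, stood at rank 5825, at 134 in the pooled list. Its rank was 3253 in replicate 2 and 5757 in replicate 3, and replicate 1 had no peak there. At the Lk6-RB TSS there were weak relaxed peaks only, at rank 28499 in the pooled list (145 bp upstream), 22172 in replicate 2 and 14345 in replicate 3. A second intronic summit, 1148 bp downstream of the Lk6-RB TSS, had a signal of 180, and its rank was 10353 in replicate 2, against 3465 and 3784 in replicates 1 and 3.

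larp, the La-related RNA-binding protein, had 6 IDR summits and 6 annotated TSSs (FBgn0261618, 3R, 28318162 to 28336440, minus strand). Of these TSSs 4 had a summit within 500 bp, from 3 summits, since larp-RA and larp-RE share 1. The strongest (summit 28326598) marked the most downstream promoter. It lay 334 bp upstream of the larp-RA TSS and 357 bp upstream of that of larp-RE, inside introns of the longer transcripts, with a pooled signal of 2662 and rank 18. Its signal was 641, 959 and 1078 in replicates 1, 2 and 3, at ranks 24, 16 and 19. The promoters at the 5′ end were far weaker: 189 bp upstream of the TSS shared by larp-RG and larp-RH the pooled signal was 311 (rank 2095), and 132 bp upstream of the larp-RD TSS it was 180 (rank 4207). The larp-RB TSS had its nearest IDR summit 610 bp upstream, with a signal of 164, and another 843 bp downstream, at 144 (rank 5406). The larp-RF TSS had no IDR summit within 500 bp but a pooled relaxed one, 353 bp downstream at rank 9511. A summit 3471 bp upstream of larp-RD, with a signal of 151, lay 146 bp from the TSS of Gfat2, which encodes an enzyme of hexosamine synthesis.

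Ordered by their strongest IDR summit the genes ran Lk6, larp, Akt, foxo, InR, S6k, Tor and Thor. The first 3 were separate in every replicate, with ranks of 4 to 6 for Lk6, 16 to 24 for larp and 71 to 81 for Akt. After them foxo spanned ranks 630 to 1768 and InR 938 to 1493, so the order of this pair was not settled by the replicates. S6k, at 1673 to 2630, was below InR in every replicate, and its ranks overlapped those of Tor, at 1504 to 4925. In 5 of the 8 genes, namely Lk6, Akt, foxo, InR and S6k, the strongest summit was not within 500 bp of an own TSS. The strongest summit of larp was at an internal promoter. Such positions were common: of all IDR summits, 5117 lay farther than 500 bp from any TSS and 3307 lay within that distance. The share of other genes whose strongest summit was not within 500 bp of an own TSS was not computed.

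By position, 10 of the 32 summits lay within 500 bp of an own TSS, with a median pooled signal of 197. A further 14 of the 32 lay inside the gene but farther from its TSSs, with a median of 162, and 8 lay outside the gene, with a median of 166. None of the 32 summits fell in a coding exon of its own gene, and 3, at Lk6, Thor and S6k, fell in a 5′ untranslated exon. The TSS of another gene was closer than the gene's own in 12 cases, and in 7 cases another gene's TSS was within 500 bp. The exon counts and the counts of other genes' TSSs were not set against all IDR summits.

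The pooled relaxed list held 97 summits in the regions of the 9 genes, of which 65 were outside the IDR set. They were concentrated in the long genes, with 18 at InR and 20 at foxo, while larp had 8, Thor 7, Lk6 6, S6k 4 and Akt 2, and Tor and chico had none. The replicate lists gave 26.3 ± 4.62 peaks at InR (SD, n = 3), and 14, 25 and 27 at foxo in replicates 1, 2 and 3. At larp they gave 12.7 ± 0.58, at Thor 9.33 ± 2.52 and at Lk6 9.33 ± 5.51 (SD, n = 3). The spread at Lk6 came from 15 peaks in replicate 2, against 4 in replicate 1 and 9 in replicate 3, so the number of weak peaks varied far more between libraries than the rank of its intronic summit did. Akt and S6k each had 5.67 peaks on average, Tor 2.33 and chico 1.33.

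**Figure D2:**
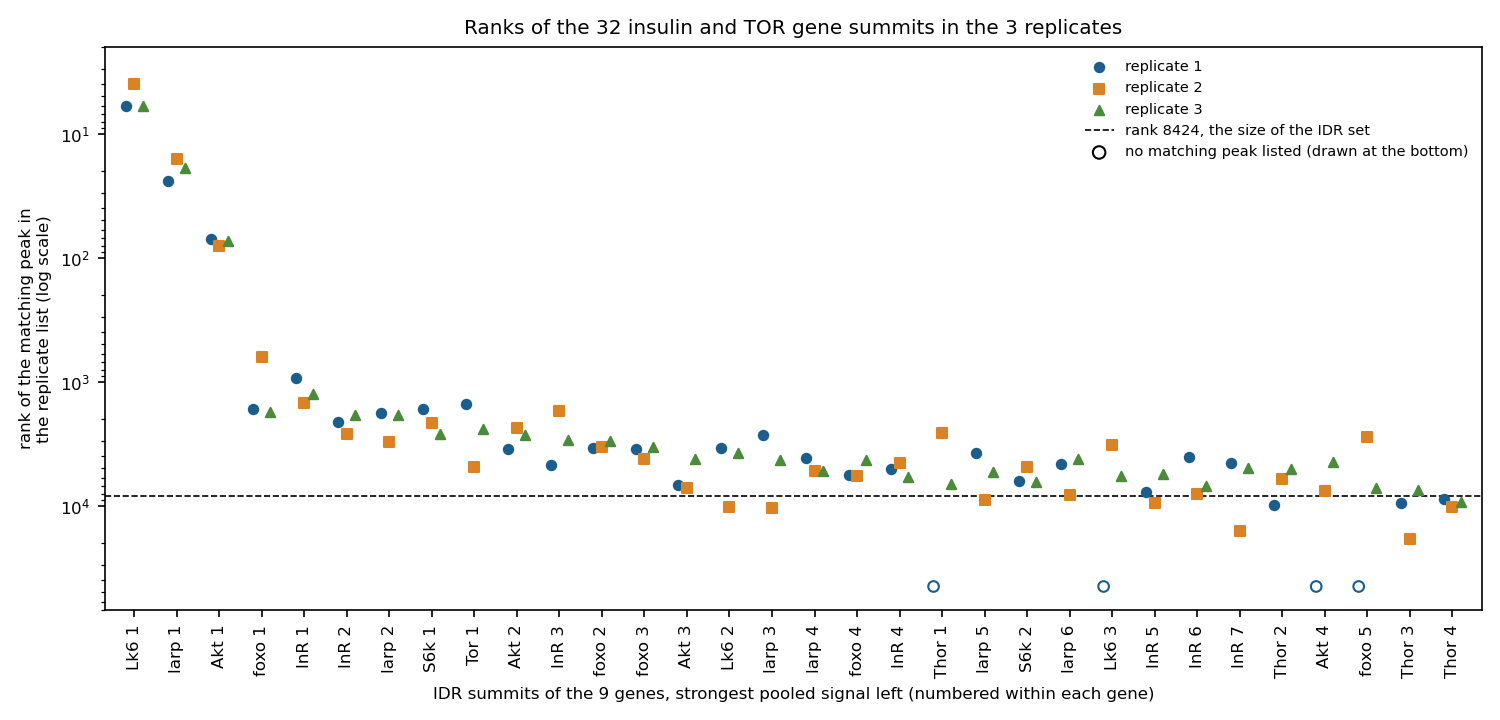
Rank (log axis, strongest at the top) of the peak that matched each of the 32 summits in the 3 replicate lists, summits ordered by pooled signal and numbered within each gene. Open symbols at the bottom mark summits with no matching peak, and the dashed line is rank 8424. Lk6 1, larp 1 and Akt 1 stand apart at ranks of 4 to 81, and the 4 open symbols are all of replicate 1.

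Replicate 1 lacked a peak at some summits that the other replicates held. All 32 summits had a matching peak in replicates 2 and 3, but 4 had none in replicate 1: the promoter summits of Thor and Lk6 and the intronic summits of Akt (rank 6208) and foxo (rank 7531). The share without a peak in replicate 1 was 12.5% of the 32 summits, against 7.97% of all IDR summits, where it was 15.7% within 500 bp of any TSS and 2.95% farther away. In replicate 2 it was 0 of the 32, against 1.32% of all IDR summits, and in replicate 3 it was 0 of the 32, against 0.321%. Whether this difference between libraries arose in the animals, the immunoprecipitation or the sequencing was not tested.

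Counted on the 8424 strongest peaks of each replicate, 6 of the 9 genes had a promoter summit in replicate 1 and 7 in replicates 2 and 3, or 6.67 ± 0.58 (SD, n = 3). The same share of all protein-coding genes was 24.97% ± 2.73 (SD, n = 3). InR, foxo, Tor, S6k and larp were found in every replicate. Of the 32 summits, 20 (62.5%) matched one of the 8424 strongest peaks in all replicates, against 66.0% of all IDR summits. Among IDR peaks that the other replicates both held among their strongest, the number of summits was 25 without replicate 1, 25 without replicate 2 and 20 without replicate 3. Of all 8424 IDR peaks these settings left 6472, 6365 and 5870 in turn. The number of genes with a promoter summit was then 7 without replicate 1 and 5 without replicate 2 or 3, Thor and Lk6 being the ones lost.

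Genes whose strongest IDR summit had the most similar ranks in the 3 replicates were named for the 3 strongest genes, by the summed absolute difference of log2 rank. For Lk6 they were PNPase, with ranks of 5, 6 and 4 in replicates 1, 2 and 3 (summed difference 1.43), and ush, with ranks of 3, 5 and 5 (1.58). For larp they were CG9147 and Fbw5, which share 1 peak with ranks of 25, 17 and 15 (0.49). For Akt the first was Mhcl, whose strongest summit is the same one, and the next was Mi-2, with ranks of 73, 72 and 72 (0.25). Similar ranks over 3 libraries describe strength only.

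The rest of the pathway was described with a list of 58 other genes, drawn up with earlier results of these data known, from insulin-like peptides to autophagy genes, and 28 of them (48.3%) held an IDR summit at most 500 bp from an own TSS. The region of 40 (69.0%) held one, against 50.9% of protein-coding genes. All protein-coding genes had 24.3% by the first measure. Of the 19 listed genes with at least 2 TSSs, 13 had such a summit, against 41.8% of all such genes. The strongest such summit of each of the 28 genes had a median signal of 178, close to that of all IDR summits, and a range of 95.7 to 1444. The count was 24 without replicate 1, 17 without replicate 2 and 15 without replicate 3. These settings cut the IDR set itself from 8424 peaks to 6472, 6365 and 5870, so a loss is built into them. No share of all protein-coding genes under the same settings was set beside these counts. At 9 of the 28 genes replicate 1 listed no peak that matched the strongest promoter summit, while replicates 2 and 3 each listed one at all 28. Replicate 1 also had no match for 520 (15.7%) of the 3307 IDR summits within 500 bp of any TSS. That share counts summits rather than genes, and the difference was not tested. Of the 30 genes without an IDR summit at a TSS, 13 had a pooled relaxed one.

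The roles hold 2 to 10 genes each, and differences between them were not tested. The phosphoinositide 3-kinase branch, which passes the signal of chico to Akt, had a summit at the 3 genes listed for it: Pi3K21B, the regulatory subunit, at a signal of 470, and Pdk1 and Pi3K92E at 151 and 115. The secreted inhibitors of insulin-like peptides, ImpL2 and Sdr, and the adaptors Lnk and dock also had one each. Of the 8 insulin-like peptide genes, Ilp6 and Ilp7 had one, at signals of 205 and 175, and Ilp1, Ilp2, Ilp3, Ilp4, Ilp5 and Ilp8 had none. This share, 25%, is near the 24.3% of all protein-coding genes.

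The TSC, Rheb, TORC1, TORC2, Rag and GATOR genes had a summit at a TSS in 4 of 18 cases (22.2%), near the share of all protein-coding genes, and one in the region in 10 of 18 (55.6%), against 50.9%. The TORC1 genes raptor, Lst8 and PRAS40 and the TORC2 genes rictor and Sin1 had none within 500 bp. In the region PRAS40 had 6, the strongest at 527, and raptor had 2, the strongest at 214, while Lst8, rictor and Sin1 had none. Rheb, the small GTPase that activates TORC1, had one, at 182. Of the 10 Rag and GATOR genes, which report amino acid supply to TORC1, 3 had one: Wdr24 at 861, Sesn, a stress-induced TORC1 inhibitor, at 1280, and mio at 149. Within 500 bp of an own TSS the highest signal of the list was at REPTOR, a transcription factor that acts when TORC1 is low. It stood at 1444 (rank 98), with ranks of 107, 95 and 96 in replicates 1, 2 and 3. Other high values there were at melt, a membrane modulator of Akt and Tor signalling, with 825, and Atg17, an autophagy gene, with 602. Lower in that order were Lkb1 with 342, Mnt with 323, 14-3-3zeta with 280, Atg8a with 243 and Sdr with 211. Some regions also held strong IDR summits farther from an own TSS, such as slif at 3196, above REPTOR, Nprl3 at 1191, mio at 1175 and ImpL2 at 1080. The remaining genes of the list without an IDR summit at a TSS were trbl, Tsc1, gig, RagA-B, RagC-D, Nprl2, Nprl3, Iml1, Nup44A, Wdr59, slif, path, AMPKalpha, REPTOR-BP, Mitf, Tif-IA, eIF4G1, Atg1 and Atg13.

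**Figure D3:**
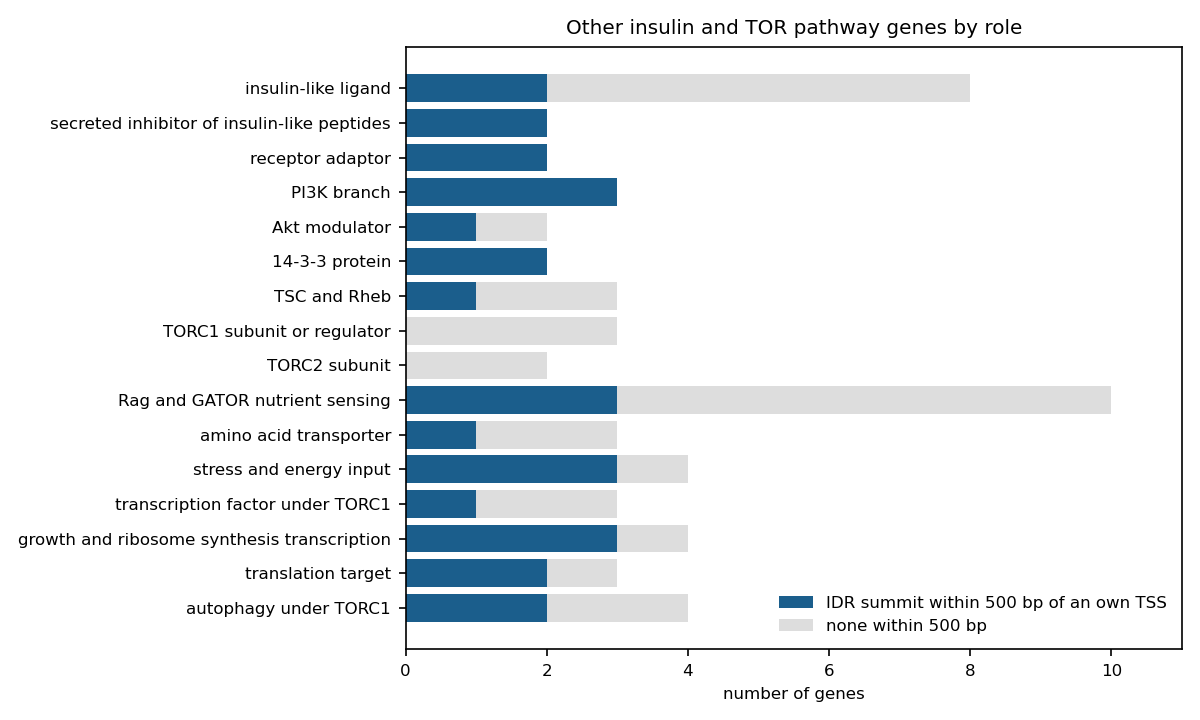
Number of genes of the list of 58 by role, with (blue) and without (grey) an IDR summit within 500 bp of an own TSS. The bar of the phosphoinositide 3-kinase branch (PI3K branch) is blue throughout, with 3 of 3 genes, while the bars of the TORC1 and TORC2 genes are grey throughout, with 0 of 3 and 0 of 2. The share of all protein-coding genes was 24.3%, and differences between roles were not tested. In the region, 2 of the 3 TORC1 genes and 0 of the 2 TORC2 genes held an IDR summit.

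Motif matches near the summits were searched as exact letters on both strands within 100 bp. A match is not evidence of binding. The BEAF-32 core (CGATA) was present at 9 of the 32 summits (28.1%), against 25.1% of all IDR summits; it is also part of the longer DREF element (TATCGATA), which none of the 32 held, against 2.64%. At the foxo promoter summit the match was centred 4 bp from the summit, beside 2 GAGA matches. Within 50 and 200 bp the share with the BEAF-32 core was lower than over all IDR summits, at 12.5%, against 13.5%, and 37.5%, against 42.1%. The GAGA element (GAGAG) was present at 6 (18.8%), against 23.0%, and within 200 bp the direction turned, at 50%, against 45.0%. The cell cycle CHR element (TTTGAA) was also present at 6 (18.8%), against 31.4%, and the GATA site (AGATAA) at 2 (6.25%), against 14.02%; within 200 bp the GATA share was the higher one, at 28.1%, against 23.3%.

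The FOXO core (GTAAACA), the letters bound by foxo and other forkhead factors, was present at 4 summits (12.5%), against 5.13% of all IDR summits, but at 1 within 50 bp (3.13%, against 2.43%). The 4 were the Lk6 intron 1 summit, the Thor promoter summit, the weak Akt intron 1 summit and the summit of larp next to Gfat2. In the Lk6 window shown above the match stands directly before a CHR match, as the longest run of capitals, and 3 GAGA matches, of which 2 overlap, stand near its ends. The TGIF core (TGACAG) was present at 4 (12.5%), against 6.01%, and at 2 within 50 bp (6.25%, against 2.79%). The AP-1 site (TGANTCA) was present only at the foxo upstream summit, where it is the run of capitals in the window shown (3.13%, against 5.24%), and the M1BP core (GGTCACAC) only at the larp summit next to Gfat2 (3.13%, against 1.69%). The E-box (CACGTG) and the Zelda site (CAGGTAG) were at none of the 32, against 1.63% and 0.819%. With so few summits, 1 more or 1 fewer match moves each share by 3.13 percentage points. The Tor window holds 1 BEAF-32 core match, the capitals near its start.

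**Figure D4:**
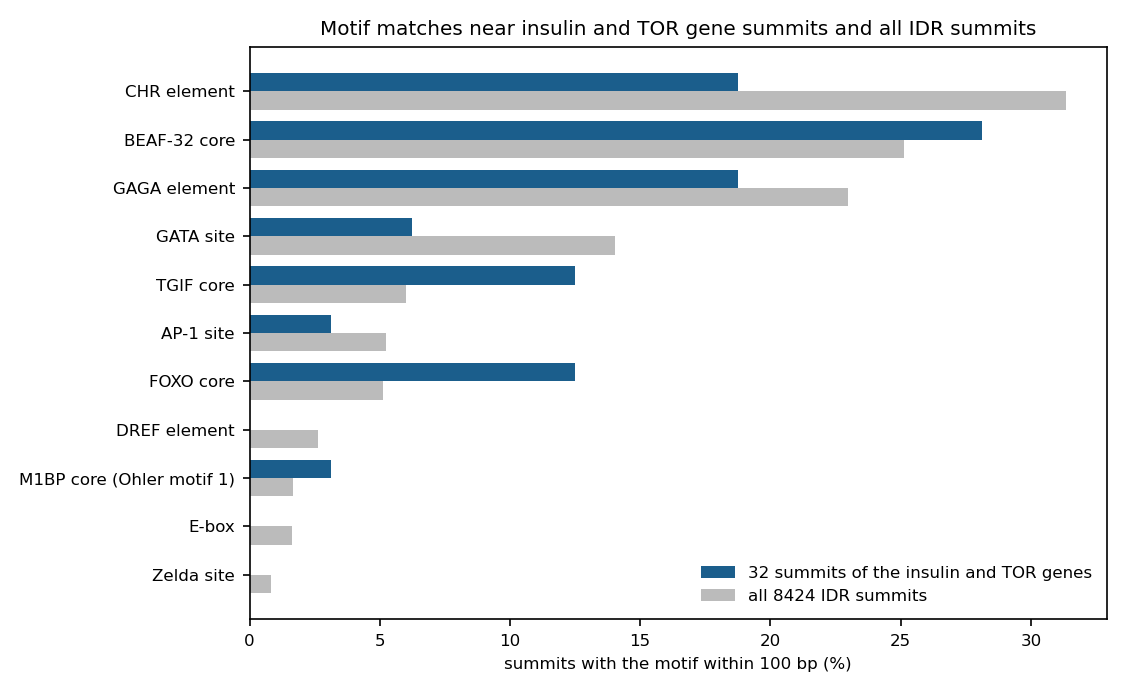
Share (%) of the 32 summits of the insulin and TOR genes (blue) and of all 8424 IDR summits (grey) with each motif within 100 bp. The FOXO core and the TGIF core are each at 12.5% of the 32 summits, against 5.13% and 6.01% of all IDR summits (3.13% and 6.25% within 50 bp, against 2.43% and 2.79%). The CHR element is at 18.8%, against 31.4%.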

How the data were processed

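ChIP-seq peak lists of 3 topi-eGFP libraries from white prepupae were used. Text files deposited beside the lists record that the authors mapped reads to dm6, called relaxed peaks per replicate and in the pool against 1 control alignment, and derived an optimal IDR-thresholded set; their aligner, caller and threshold were not given in the sources used here. Peak signal in the deposited lists is the authors' enrichment value and was used only to rank and describe peaks within a list. The deposited -log10 q-value was not used to filter. Depth per library is unknown. The dm3 lists were not used here.

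Genes and TSSs came from the Ensembl release 115 annotation, and sequences and motif windows from the RefSeq reference genome, both of the dm6 assembly. Tor was matched as mTor, and the other members by symbol. Replicate peaks matched an IDR peak by an overlap of at least 50% of either, taking the nearest summit, and "strongest" means the 8424 highest signals of a replicate. Members, gene lists and motifs were chosen with earlier results of these data known, so all values are descriptions without tests.

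Named were all 9 members, up to 12 other pathway genes by signal with the rest by role, 2 genes alike in replicate ranks for each of the 3 strongest members, and neighbours with a closer TSS; other neighbours at promoter summits or where a summit falls, and further pathway genes with a summit (Pdk1, Pi3K92E, ImpL2, Lnk, dock, Ilp7, Rheb and mio), were named after their values were seen. The counting steps were tested on simulated data, where 200 of 200 cases of each step came out right. Python 3.11.15, numpy 2.4.6, pandas 2.3.3 and matplotlib 3.10.9 were used.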

Additional observations from a re-analysis of the deposited data

How the results depend on the processing

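Among the settings tried, the counts of genes with a promoter summit and of summits were lowest when only the strongest IDR summits were kept. Among the 4212 strongest IDR summits, 4 of 7 genes kept a promoter summit (InR, foxo, Tor and larp). Of the other pathway genes 14 of 28 kept one, and 16 of 32 summits were left. This cut keeps a fixed share of the IDR set, so a loss is built into it and is no trait of these genes. The share of all protein-coding genes under the same cut was not computed. Counting the gene body alone left 20 summits. Leaving out 1 replicate in turn, with IDR peaks held by both other replicates, gave 5 to 7 genes with a promoter summit and 15 to 24 other pathway genes. It gave 7 to 8 genes with a summit in the region, and 20 to 25 summits. Leaving out a replicate in this way also shrinks the whole IDR set, so a loss is built into it as well. A TSS window of 200 bp gave 5 genes and one of 1000 bp gave 8. Region windows of 2000 and 10000 bp gave 26 and 40 summits. Matching by an overlap of 1 bp or by a replicate summit within 100 bp left the number of summits found in all replicates at 20. Allowing any relaxed peak of a replicate, in place of its 8424 strongest, gave 28. The number of motifs with a higher share among the 32 summits than among all IDR summits was 4 of 11 with windows of 50, 100 and 200 bp, but they were different motifs: the FOXO and TGIF cores were higher with each window, while the BEAF-32, GAGA, GATA, AP-1 and M1BP shares changed direction with the window. No paired analysis was possible because there is 1 group. The relaxed lists end at 30000 peaks, which limits what absence of a peak can show, and with 32 summits no share here is precise.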
